A study of Mus musculus with 12 samples.

Results

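The kallikrein-related peptidase genes Klk5 to Klk14 were followed in keratinocytes sorted from the edge of mouse skin wounds. All 10 genes were rows of the deposited count table of 55315 genes, and 9 of them were among the 16677 genes tested. Klk14 had too few counts to be tested. The set was chosen by the low Klk13 level in both fractions of RORγt-deficient mice in these same libraries, together with the neighbouring epidermal kallikrein genes. The difference between genotypes is therefore given as a description. Counts past the threshold for it appear only among the alternatives at the end, where they restate the choice and test nothing.

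RNA-seq was run on 12 libraries in 4 groups of 3. RORγt-deficient mice, which the library names call GFP-KI, gave integrin α5-positive (A5-positive) and integrin α5-negative (A5-negative) cells, and wild-type mice gave A5-positive and A5-negative cells. Every group came from mice wounded 3 days earlier, whose skin was cut out as a 0.25 mm band around the wound, and each library pooled 2 or 3 mice. Live Epcam+ integrin α6+ cells were sorted after CD45+, CD31+ and CD117+ cells had been gated out. By the labels, A5-positive cells are the migrating tongue and A5-negative cells the epithelium of the wound edge. RORγt is the transcription factor that lymphocytes need to make interleukin-17. The sources used here give neither age nor strain background.

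Kallikrein-related peptidases are secreted serine proteases encoded side by side in 1 gene cluster and made as inactive precursors. In the outer epidermis they are known for a proteolytic cascade in which trypsin-like members activate the chymotrypsin-like KLK7, and the active enzymes cleave the corneodesmosomes that hold cornified cells together. The inhibitor LEKTI, the product of Spink5, holds this cascade in check.

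Libraries held 29259516 to 74474252 counts, and levels are given as CPM, read counts scaled to library size with TMM factors. All 12 libraries carried keratinocyte RNA, with 9112 to 28384 CPM of the basal keratin Krt5 and 344 to 999 CPM of Epcam. Itga5, which encodes integrin α5, had 107 to 137 CPM in A5-positive and 47.4 to 61.2 CPM in A5-negative cells of RORγt-deficient mice, and 85.0 to 101 CPM in A5-positive and 42.2 to 51.9 CPM in A5-negative cells of wild-type mice. Fibroblast markers were far from equal between fractions: the sum of 8 genes ran from 9596 to 15881 CPM in A5-positive and from 54.2 to 498 CPM in A5-negative cells of RORγt-deficient mice, and from 3732 to 7977 CPM in A5-positive and from 75.4 to 224 CPM in A5-negative cells of wild-type mice. The sum of 8 macrophage and monocyte genes ran from 79.3 to 220 CPM in A5-positive cells of RORγt-deficient mice. It ran from 87.2 to 550 CPM in their A5-negative cells. In wild-type mice the ranges were 88.4 to 153 CPM and 81.2 to 1244 CPM. All 8 were lower in A5-positive cells in both genotypes, and 0 passed edgeR's test. The sum of 6 Langerhans and dendritic cell genes was 3201 CPM in the first wild-type A5-negative library and 290 CPM in the second. Among bulk libraries, fewer cells of a type and less RNA per cell cannot be told apart.

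In the GENCODE M21 annotation of GRCm38 the 10 genes lay on the plus strand of chromosome 7, in the order Klk14, Klk13, Klk12, Klk11, Klk10, Klk9, Klk8, Klk7, Klk6 and Klk5. Among these 10 genes Klk14 started first, at 43690418, and Klk5 ended last, at 43851181. Klk13 (43712567 to 43727534) stood apart from its neighbours, 17.03 kb from Klk14 and 41.362 kb from Klk12, whereas the other gaps ran from 0.819 kb to 9.94 kb. The gene 2310002F09Rik, annotated across this stretch on the other strand, shared 382 exon bases with Klk8 and 287 with Klk14, and it had 10 to 93 counts in a library. The sources used here do not give the strand setting of the counting, so Klk8 and Klk14 reads cannot be told apart from those of that gene within the shared bases. The other 8 genes shared no exon base with another gene.

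Promoter sequence is shown for 3 genes that moved in different ways: Klk13, the member with the largest differences, Klk7, the most abundant one, and Klk10, which varied least with differentiation. Each line gives the 250 bases before the annotated start, from the RefSeq tables for GRCm38.p6, at chr7:43712317-43712566 for Klk13, chr7:43811044-43811293 for Klk7 and chr7:43780804-43781053 for Klk10, all on the plus strand. The capitals mark the only match to 4 searched motifs.
Klk13: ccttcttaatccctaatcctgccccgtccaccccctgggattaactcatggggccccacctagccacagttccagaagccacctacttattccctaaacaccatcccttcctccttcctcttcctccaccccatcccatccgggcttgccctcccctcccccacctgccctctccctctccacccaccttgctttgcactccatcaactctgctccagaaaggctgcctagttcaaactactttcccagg
Klk7: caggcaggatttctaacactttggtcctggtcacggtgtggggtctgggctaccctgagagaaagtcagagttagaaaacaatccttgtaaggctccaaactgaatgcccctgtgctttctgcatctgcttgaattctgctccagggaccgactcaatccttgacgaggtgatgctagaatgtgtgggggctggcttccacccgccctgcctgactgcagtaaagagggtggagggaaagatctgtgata
Klk10: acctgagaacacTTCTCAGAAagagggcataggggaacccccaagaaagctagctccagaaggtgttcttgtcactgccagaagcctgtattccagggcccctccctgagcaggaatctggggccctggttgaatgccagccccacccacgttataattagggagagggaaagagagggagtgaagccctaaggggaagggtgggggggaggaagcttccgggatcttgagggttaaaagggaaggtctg
The match was TTCNNNGAA, the letters that STAT factors bind, at position -238 of Klk10, and it was found in 1 of 12 windows of 300 bases that the table holds for the 10 genes and in 8.30% of all 32851 windows. AGGTCA, the core letters bound by ROR and other nuclear receptors, was in 0 of the 12 windows and in 16.3% of all windows. TGANTCA, the AP-1 letters, was in 0 of the 12 and in 7.81% of all, and AACCNGTT, those of grainyhead-like factors, in 0 of the 12 and in 2.09% of all. Both strands were searched, and a missing match says only that these letters are not in this window.

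Klk7 made up most of the kallikrein transcripts in 11 of the 12 libraries once counts were divided by exon length. Its share of the summed CPM per kb was 55.1 to 63.7% in A5-positive and 68.6 to 72.2% in A5-negative cells of RORγt-deficient mice, and 33.7 to 59.6% in A5-positive and 69.4 to 72.4% in A5-negative cells of wild-type mice. The shares in A5-positive cells thus did not overlap those in A5-negative cells in either genotype. Klk10 came next, with 17.7 to 22.7% in A5-positive and 9.95 to 13.1% in A5-negative cells of RORγt-deficient mice, and 14.2 to 37.4% in A5-positive and 10.1 to 10.8% in A5-negative cells of wild-type mice. Klk13 was a minor part everywhere, with at most 7.25% in a library, and Klk12 and Klk14 were close to nothing. The first wild-type A5-positive library stood apart, with the lowest Klk7 share (33.7%) and the highest Klk10 (37.4%) and Klk13 (7.25%) shares of all 12.

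**Figure D1:**
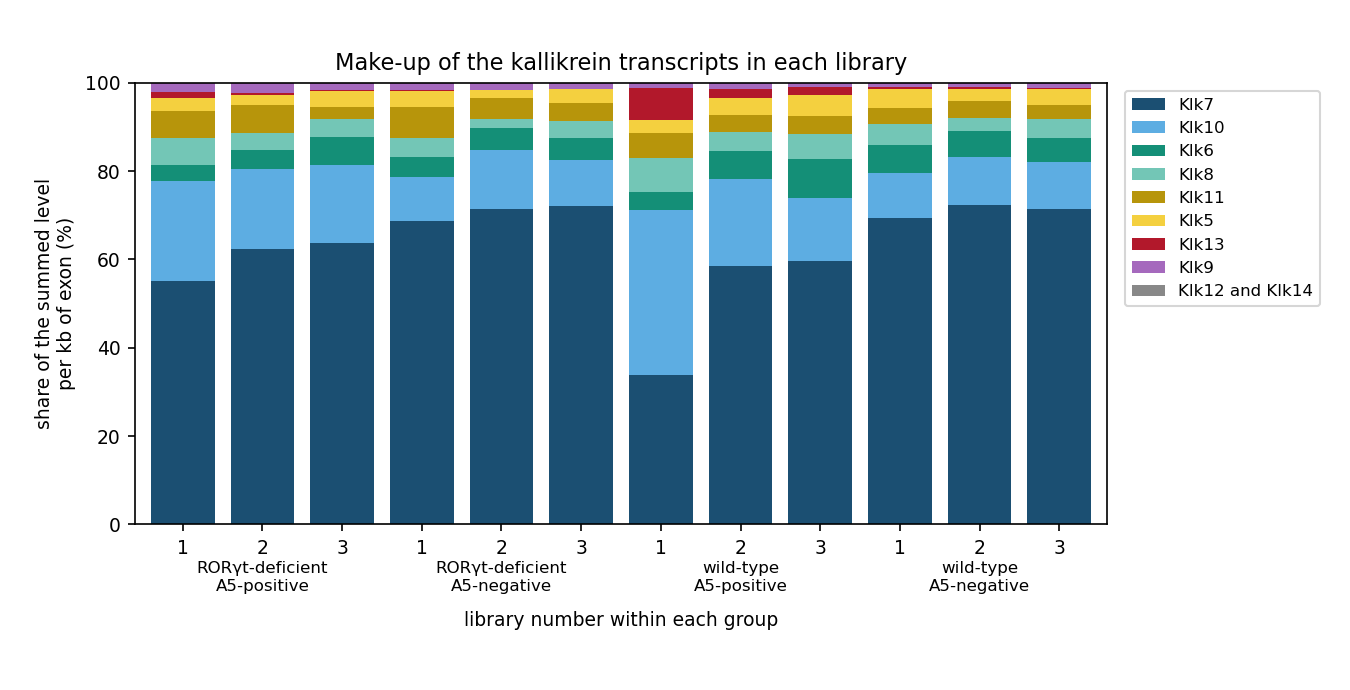
Stacked bars give each gene's share (%) of the summed kallikrein level per kb of exon in each of the 12 libraries, numbered within the 4 groups. Klk7 takes 33.7 to 63.7% in A5-positive and 68.6 to 72.4% in A5-negative libraries, and the Klk13 segment is widest, at 7.25%, in the first wild-type A5-positive library.

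Cells of the A5-positive fraction were set against A5-negative cells within each genotype to ask how the migrating front differs from the edge behind it. Klk13, a trypsin-like kallikrein of stratified epithelia, was higher in A5-positive cells in both genotypes, while Klk7 ran the other way. In RORγt-deficient mice Klk13 had 5.23, 2.40 and 2.22 CPM in A5-positive cells, against 0.868, 0.572 and 1.02 CPM in A5-negative cells. In wild-type mice it had 29.7, 14.5 and 16.4 CPM in A5-positive cells, against 3.96, 4.15 and 3.45 CPM in A5-negative cells. All 3 A5-positive libraries lay above all 3 A5-negative ones in each genotype, as was the case for 14.3% of all genes in RORγt-deficient and 15.9% in wild-type mice.

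Klk13 rose with A5 status by a log2 fold change of 2.01 ± 0.39 (SE) in RORγt-deficient mice (edgeR quasi-likelihood test, adjusted p = 0.0103), with means of 3.28 ± 1.68 CPM in A5-positive and 0.819 ± 0.225 CPM in A5-negative cells (SD, n = 3 each). In wild-type mice it rose by 2.39 ± 0.37 (adjusted p = 0.00542), with means of 20.2 ± 8.27 CPM in A5-positive and 3.85 ± 0.3604 CPM in A5-negative cells. It was the only member past the threshold of 0.05 in each case, 1 of 9 tested, where 5.52% of all genes passed in RORγt-deficient mice and 3.45% in wild-type mice. The call in RORγt-deficient mice rested on few reads, 20 to 64 counts in each A5-negative library, and it was lost without the second A5-negative library of that genotype (1.79, adjusted p = 0.0579). Without the first wild-type A5-positive library the wild-type change was 1.99 ± 0.36 (adjusted p = 0.0196). All 8 fibroblast markers rose with A5 status in both genotypes. Of 7 markers of wounded epidermis, 3 rose in RORγt-deficient and 5 in wild-type mice, beside the same 5.52% and 3.45% of all genes. The wounded epidermis list includes Itga5, the gene of the sorted integrin, so its difference follows from the sort. Whether these markers had a part in the Klk13 difference was not tested.

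**Figure D2:**
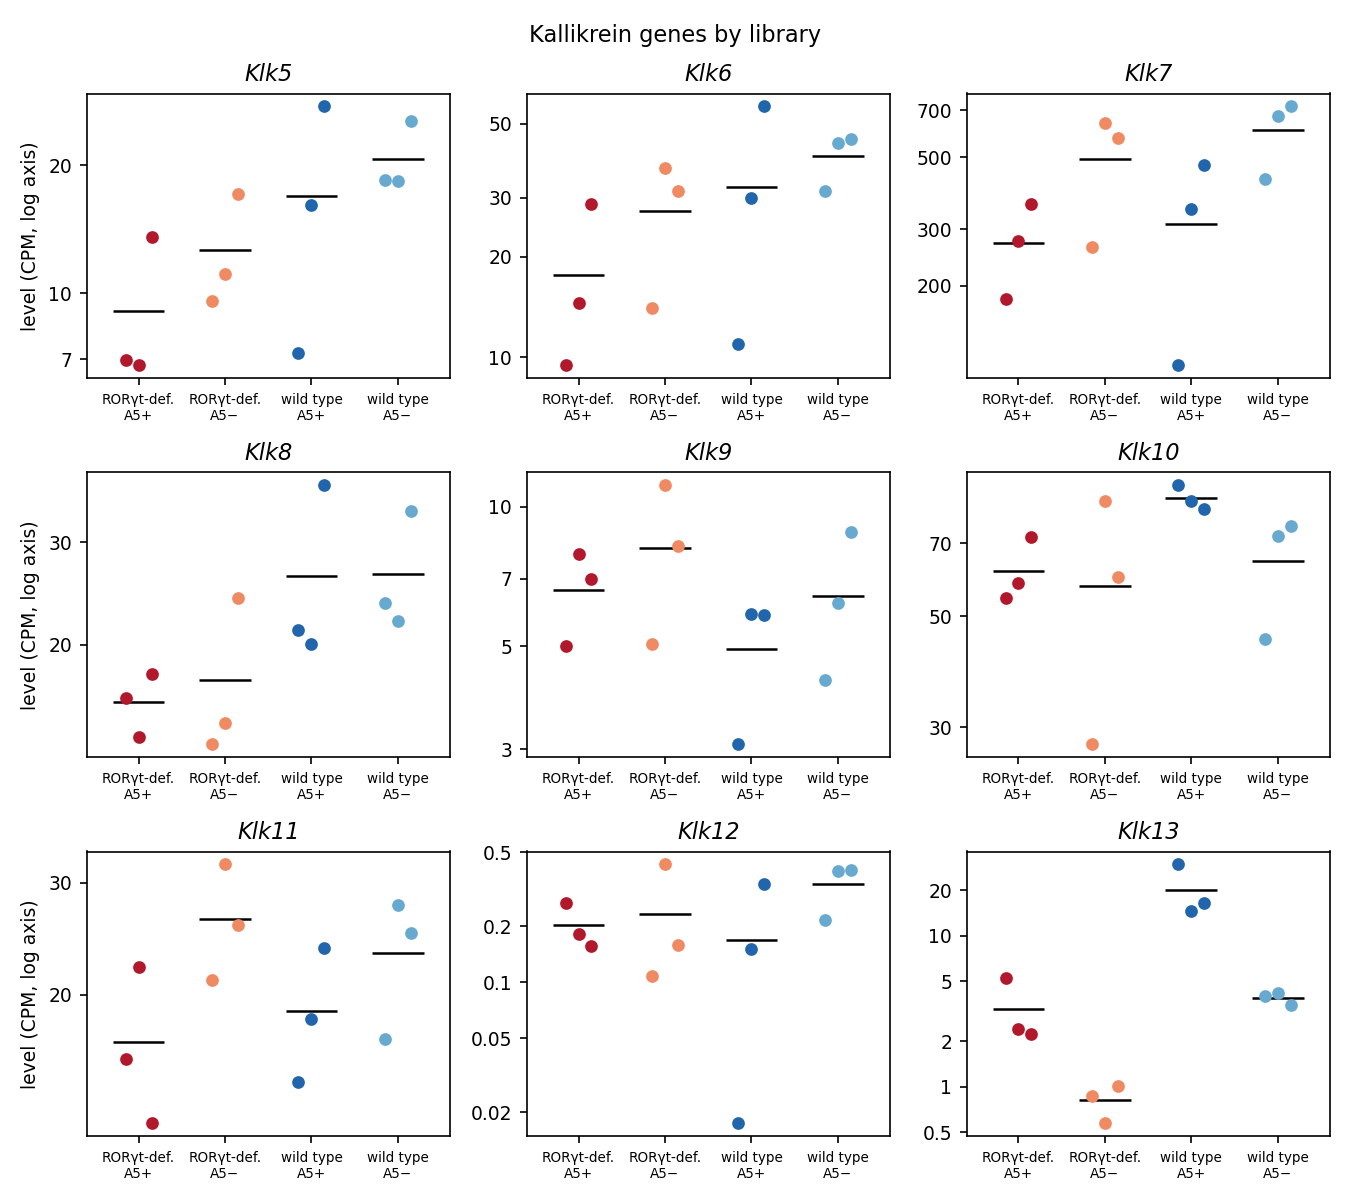
Each panel plots the level of 1 kallikrein gene (CPM, log axis) in the 12 libraries, by group, with RORγt-deficient groups left of wild-type ones; points are libraries and bars are means of 3. Klk13 is lowest in RORγt-deficient A5-negative cells (0.572 to 1.02 CPM) and highest in wild-type A5-positive cells (14.5 to 29.7 CPM), while Klk7 lies lower in A5-positive than in A5-negative means.

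Klk7, the chymotrypsin-like protease of desquamation, had 182, 276 and 358 CPM in A5-positive cells of RORγt-deficient mice, against 264, 639.7 and 573 CPM in their A5-negative cells. In wild-type mice it had 114, 347 and 474 CPM in A5-positive cells, against 427, 670.4 and 718 CPM in A5-negative cells. Libraries with the number 1 were the lowest of their group in all 4 groups, and the groups overlapped, yet the A5-positive library was the lower one in each of the 6 pairs with the same number. The log2 fold change was -0.85 ± 0.46 in RORγt-deficient mice (adjusted p = 0.297) and -0.96 ± 0.46 in wild-type mice (adjusted p = 0.267). With the replicate number as a block in the same model Klk7 fell by 0.81 ± 0.21 in RORγt-deficient mice (adjusted p = 0.0265) and by 1.12 ± 0.22 in wild-type mice (adjusted p = 0.00874) on the log2 scale. The blocked call held in 8 of 12 fits that left out 1 library in RORγt-deficient mice and in 12 of 12 in wild-type mice.

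Klk5, a trypsin-like activator of KLK7, had 6.97, 6.79 and 13.6 CPM in A5-positive and 9.61, 11.1 and 17.1 CPM in A5-negative cells of RORγt-deficient mice. Wild-type mice had 7.24, 16.2 and 27.5 CPM of Klk5 in A5-positive and 18.5, 18.4 and 25.3 CPM in A5-negative cells. The fractions overlapped in both genotypes, with log2 fold changes of -0.47 ± 0.42 and -0.29 ± 0.42 (adjusted p = 0.539 in RORγt-deficient and 0.715 in wild-type mice). Klk14, another trypsin-like member of this cascade, had 0, 0 and 0 counts in A5-positive and 0, 4 and 0 in A5-negative cells of RORγt-deficient mice, and 0, 1 and 3 in A5-positive and 0, 1 and 0 in A5-negative cells of wild-type mice. A count of 0 allowed up to 3 counts, or 0.0407 to 0.101 CPM depending on the library, which covers counting error only. No difference in Klk14 was detectable at this depth.

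Klk6, a trypsin-like protease also called neurosin, had 9.48, 14.5 and 28.8 CPM in A5-positive and 14.1, 36.9 and 31.6 CPM in A5-negative cells of RORγt-deficient mice. In wild-type mice Klk6 had 10.9, 30.0 and 56.4 CPM in A5-positive and 31.6, 43.7 and 44.9 CPM in A5-negative cells. Its fractions overlapped, as did those of Klk5 and Klk7, and the wild-type A5-positive group had the widest range of the 4. Log2 fold changes of Klk6 were -0.64 ± 0.54 in RORγt-deficient mice (adjusted p = 0.504) and -0.31 ± 0.54 in wild-type mice (adjusted p = 0.772). Without the first wild-type A5-positive library, the wild-type changes of Klk5 and Klk6 turned to 0.072 and 0.11.

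Klk11, a trypsin-like member, had 15.8, 22.2 and 12.6 CPM in A5-positive and 21.1, 32.1 and 25.7 CPM in A5-negative cells of RORγt-deficient mice, and 14.6, 18.3 and 23.7 CPM in A5-positive and 17.1, 27.7 and 25.0 CPM in A5-negative cells of wild-type mice. As for Klk7, and for Klk9 below, the A5-positive library was the lower one in each of the 6 pairs with the same number. The share of all genes with this pattern was not counted. The change was -0.64 ± 0.26 in RORγt-deficient mice (adjusted p = 0.181) and -0.30 ± 0.26 in wild-type mice (adjusted p = 0.534). With the replicate block Klk11 fell by 0.63 ± 0.20 in RORγt-deficient mice (adjusted p = 0.0471), a call that held in 3 of 12 fits without 1 library, and was at -0.28 ± 0.20 in wild-type mice (adjusted p = 0.353). The blocked fits therefore called 3 of 9 members in RORγt-deficient mice (Klk7, Klk11 and Klk13), where 17.6% of all genes passed, and 2 of 9 in wild-type mice (Klk7 and Klk13), where 14.4% passed.

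Klk10, whose human protein has no well-established protease activity, was nearly level between the fractions of RORγt-deficient mice, with 54.4, 58.4 and 71.9 CPM in A5-positive and 27.8, 85.1 and 59.8 CPM in A5-negative cells. In wild-type mice it had 91.4, 85.2 and 81.8 CPM in A5-positive cells, all above the 45.1, 72.3 and 75.9 CPM of A5-negative cells. The log2 fold changes were 0.10 ± 0.32 (adjusted p = 0.883) in RORγt-deficient and 0.42 ± 0.32 (adjusted p = 0.474) in wild-type mice. Levels that did not overlap and were higher in A5-positive cells were found in 15.9% of all genes in wild-type mice.

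Klk8, or neuropsin, had 13.9 to 17.8 CPM in A5-positive and 13.5 to 24.05 CPM in A5-negative cells of RORγt-deficient mice, and 20.04 to 37.6 CPM in A5-positive and 22.0 to 34.0 CPM in A5-negative cells of wild-type mice. Klk9, a chymotrypsin-like member, had 4.997 to 7.91 CPM in A5-positive and 5.05 to 11.1 CPM in A5-negative cells of RORγt-deficient mice, and 3.08 to 5.88 CPM in A5-positive and 4.23 to 8.82 CPM in A5-negative cells of wild-type mice. Klk12 was at the lower limit, with 1 to 15 counts in a library. None of the 3 passed the threshold, with log2 fold changes of -0.12 for Klk8, -0.29 for Klk9 and -0.15 for Klk12 in RORγt-deficient mice, and of -0.01 for Klk8, -0.38 for Klk9 and -1.07 for Klk12 in wild-type mice. Over the 9 tested members the median A5 change was -0.29 in RORγt-deficient and -0.30 in wild-type mice, beside -0.00033 and 0.025 over all genes.

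**Figure D3:**
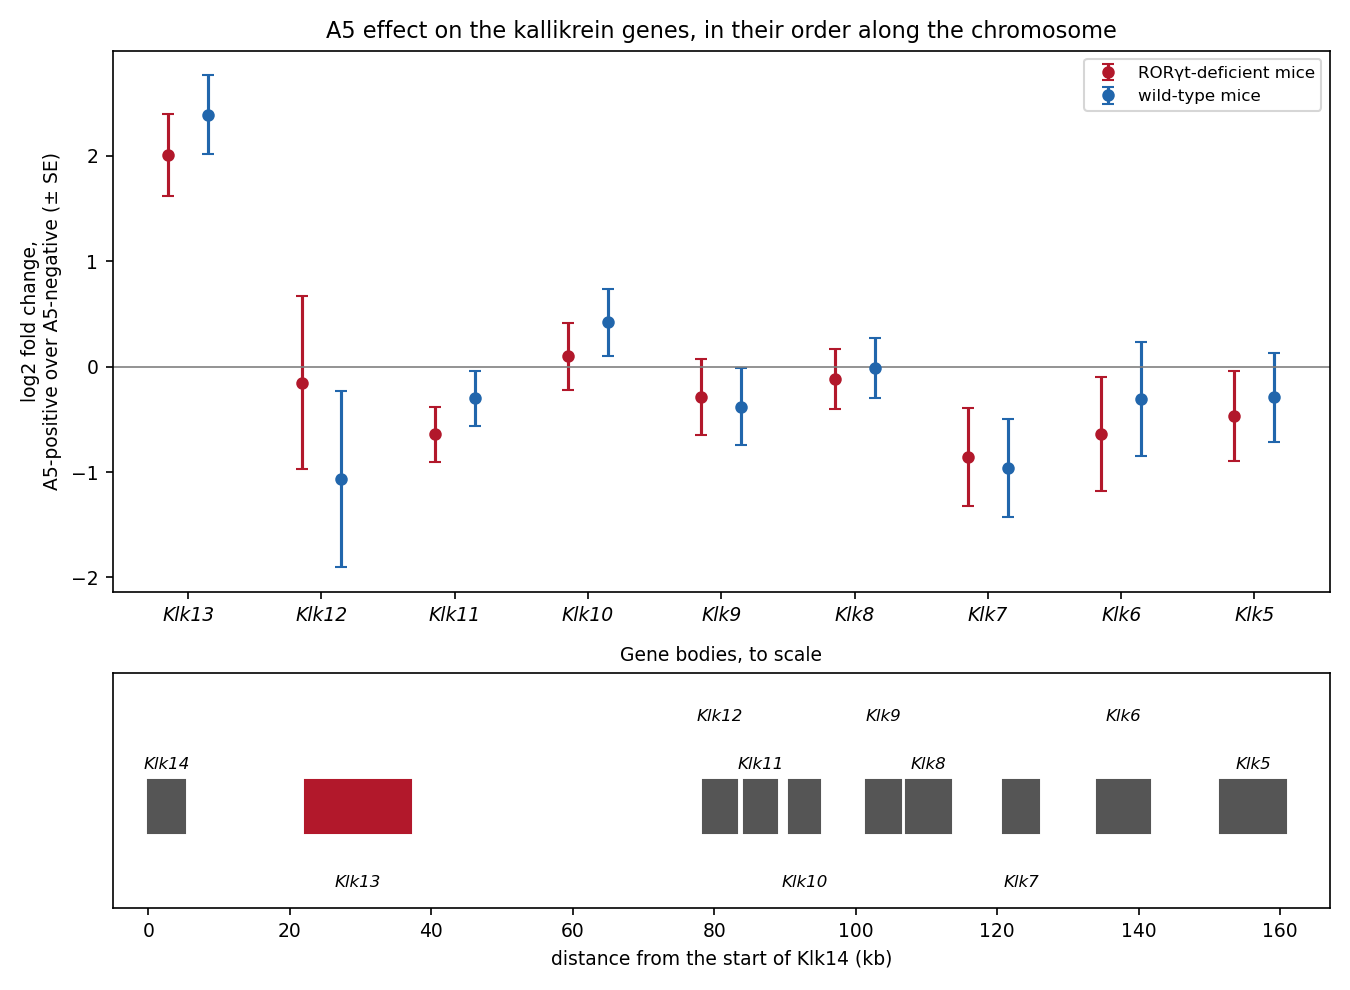
The upper panel plots the log2 fold change of A5-positive over A5-negative cells (± SE) for the 9 tested genes in chromosome order, RORγt-deficient mice left of wild-type mice in each pair; the lower panel maps the 10 gene bodies by distance from the start of Klk14 (kb). Klk13, with changes of 2.01 and 2.39, is the only gene far above 0, and it lies 41.362 kb from Klk12.

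RORγt-deficient mice were set against wild-type mice within each fraction to ask what loss of RORγt does to wound-edge keratinocytes. This contrast chose the genes, so its values are described only. Klk13 was lower in RORγt-deficient mice in both fractions, by a log2 fold change of -2.61 ± 0.38 in A5-positive and -2.23 ± 0.39 in A5-negative cells. The groups did not overlap in either fraction. Ranked by level, Klk13 was lowest in RORγt-deficient A5-negative cells, and the RORγt-deficient A5-positive libraries (2.22 to 5.23 CPM) spanned the wild-type A5-negative ones (3.45 to 4.15 CPM). Wild-type A5-positive cells stood above all other groups. Fibroblast markers went the other way in A5-positive cells, with sums of 9596 to 15881 CPM in RORγt-deficient and 3732 to 7977 CPM in wild-type mice. Neutrophil markers, summed over 5 genes, had 3.74 to 7.32 CPM in RORγt-deficient and 13.1 to 16.9 CPM in wild-type A5-positive cells. Of the 4 neutrophil markers tested, 3 were lower and 1 was higher in RORγt-deficient A5-positive cells. All 4 were lower in RORγt-deficient A5-negative cells. In A5-negative cells neutrophil markers summed to 4.95 to 14.2 CPM in RORγt-deficient and 9.32 to 13.6 CPM in wild-type mice, with Retnlg at 0 in the wild-type ones. The part of either list in the Klk13 difference was not tested.

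Other members also had lower levels in RORγt-deficient mice, by less. Klk5 differed by -0.89 ± 0.43 in A5-positive and -0.72 ± 0.42 in A5-negative cells, Klk6 by -0.88 ± 0.54 and -0.54 ± 0.54, and Klk8 by -0.72 ± 0.29 and -0.61 ± 0.29. In every same-numbered pair the RORγt-deficient library was the lower one for these genes. The share of all genes with this pattern was not counted, and nothing is read from it. Klk8 did not overlap in A5-positive cells, where RORγt-deficient libraries had 16.2, 13.9 and 17.8 CPM, against 21.3, 20.04 and 37.6 CPM in wild-type libraries. Klk5 did not overlap in A5-negative cells, and Klk10 did not overlap in A5-positive cells, with a difference of -0.48 ± 0.32 there and -0.16 ± 0.32 in A5-negative cells. Klk7 differed by -0.19 ± 0.46 in A5-positive and -0.30 ± 0.46 in A5-negative cells and Klk11 by -0.16 ± 0.26 and 0.18 ± 0.26, both with overlap. Klk9 was on the other side of 0 in both fractions, at 0.43 ± 0.36 and 0.34 ± 0.36. Klk12, with few counts, was at 0.36 ± 0.85 in A5-positive and -0.55 ± 0.80 in A5-negative cells, and Klk14 had too few counts for a comparison. Without the first wild-type A5-positive library, the Klk13 difference in A5-positive cells was -2.23 and that of Klk7 was -0.60.

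Lower and non-overlapping levels were thus seen for 3 of 9 members in A5-positive cells, beside 9.01% of all genes, and for 2 of 9 in A5-negative cells, beside 8.26%. Nothing is read from these counts, since the genotype difference chose the genes. The median over the 9 members was -0.48 in A5-positive and -0.54 in A5-negative cells, beside 0.0021 and 0.00014 over all genes.

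**Figure D4:**
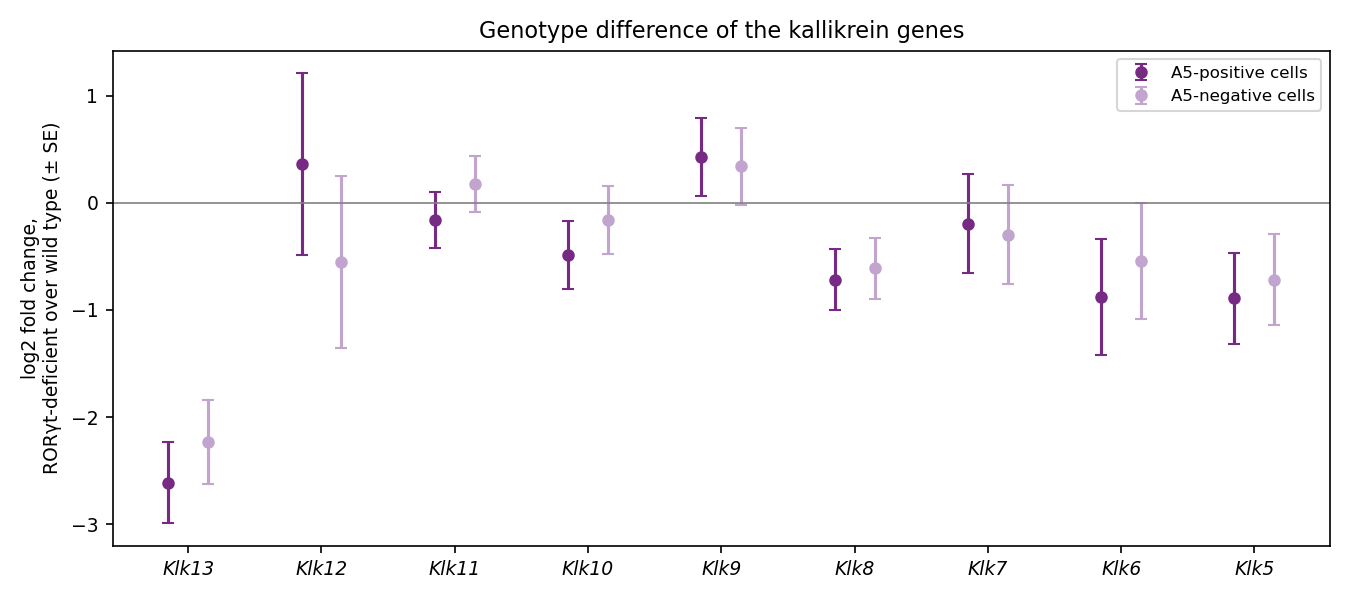
The plot shows the log2 fold change of RORγt-deficient over wild-type mice (± SE) for the 9 tested genes in chromosome order, A5-positive cells left of A5-negative cells. Klk13 lies lowest, at -2.61 and -2.23, and Klk9 lies above 0 in both fractions, at 0.43 and 0.34.

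The interaction asked whether the A5 difference itself depended on genotype, and no member passed. For Klk13 the A5 change in RORγt-deficient mice minus that in wild-type mice was -0.38 ± 0.53 (edgeR quasi-likelihood test, adjusted p = 0.9999), and for Klk7 it was 0.10 ± 0.65 (adjusted p = 0.9999). Of the 9 members, 0 passed in edgeR with or without the replicate block, beside 0% of all genes, and 0 passed in DESeq2. An unadjusted edgeR p under 0.05 was reached by 0 of the 9 and by 2.75% of all genes. These standard errors leave room for sizeable differences in either direction.

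The members varied together across libraries in different ways. Over the 12 libraries log2 CPM of Klk6 followed that of Klk7 with Pearson r = 0.89 (Spearman 0.90, and 0.82 without the 2 libraries farthest from the Klk6 median), and Klk5 followed Klk6 with r = 0.92 (Spearman 0.87). After group means were subtracted these values were 0.97 and 0.89. Klk13 had r = -0.45 with Klk7 over all libraries and -0.71 within groups, but only -0.04 once the 2 libraries farthest from the Klk7 median were left out. Values within a library share its depth and cell makeup, so these correlations are descriptions over 12 points, and the last one rests on those 2 libraries.

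**Figure D5:**
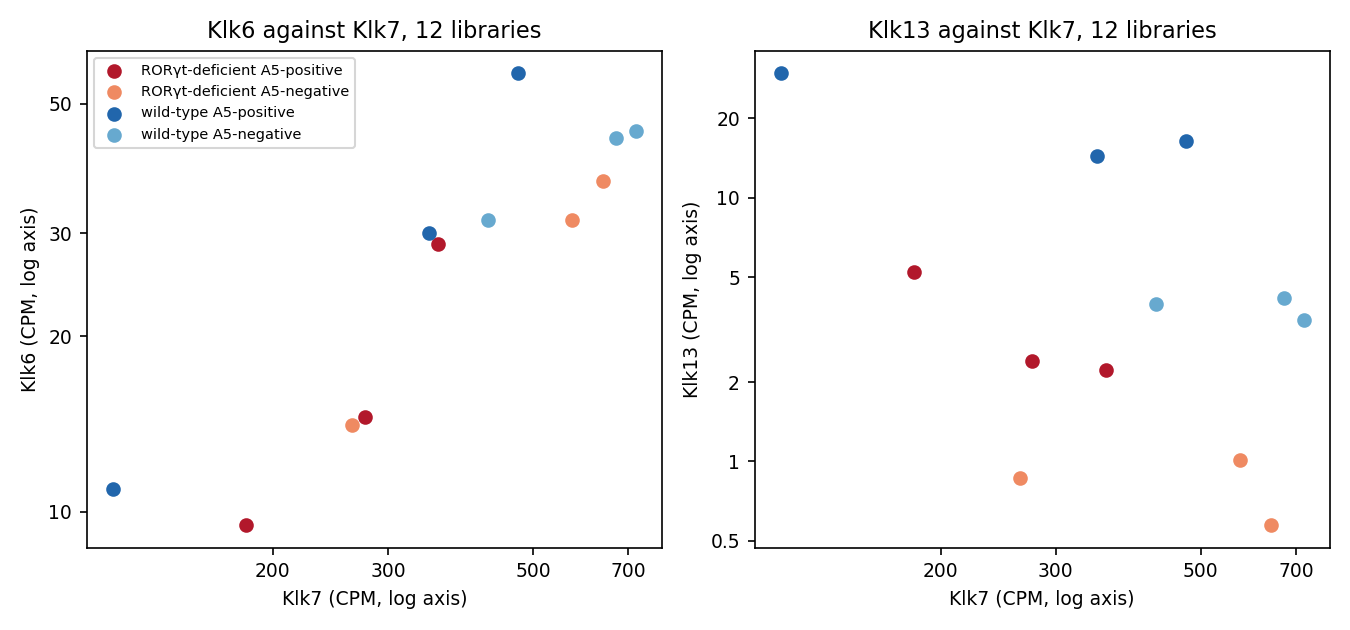
Both panels plot log axes in CPM, with 1 point for each of the 12 libraries coloured by group: Klk6 against Klk7 on the left and Klk13 against Klk7 on the right. Klk6 climbs with Klk7 across all groups (r = 0.89), whereas Klk13 is highest in wild-type A5-positive and lowest in RORγt-deficient A5-negative libraries, with the other 2 groups overlapping in between.

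Klk7 and several other members moved with markers of differentiating keratinocytes. Their summed level, over 14 genes, was 6269 to 8269 CPM in A5-positive and 10781 to 15485 CPM in A5-negative cells of RORγt-deficient mice, and 6704 to 14193 CPM in A5-positive and 9346 to 16590 CPM in A5-negative cells of wild-type mice. With the replicate block 7 of the 14 fell with A5 status in RORγt-deficient mice and 6 in wild-type mice, and 0 without it. The blocked fits called 17.6% and 14.4% of all genes in either direction, and those without it 5.52% and 3.45%. This sum had r = 0.83 with Klk7 and -0.31 with Klk13 over the 12 libraries. It had r = 0.77 with Klk5, 0.76 with Klk6 and 0.75 with Klk11. The values were 0.59 with Klk8, 0.53 with Klk12 and 0.52 with Klk9. The summed level of 11 hair follicle markers had r = 0.91 with Klk7 and -0.40 with Klk13, and the sum of 6 basal markers -0.78 with Klk7 and 0.70 with Klk13. Without the 2 libraries farthest from the Klk7 median, the Klk7 values were 0.73 for differentiation, 0.83 for hair follicle and -0.52 for basal markers. The differentiation values of Klk5, Klk6 and Klk11, each without the 2 libraries farthest from its own median, were 0.70, 0.56 and 0.88. Single genes of these lists did not all move 1 way. With A5 status in RORγt-deficient mice, 1 differentiation gene was above 0 and 13 were below. For hair follicle genes these counts were 5 and 5, and for basal genes 3 and 3. In wild-type mice they were 5 and 9 for differentiation, 4 and 6 for hair follicle and 4 and 2 for basal genes. Klk10 went with neither differentiation (0.02) nor basal markers (0.21). Klk10 had r = 0.79 with the sum of 7 wounded epidermis markers, or 0.45 without the 2 libraries farthest from the Klk10 median. For Klk13 and the same sum r was 0.75, or 0.68 without the 2 libraries farthest from the Klk13 median. After group means were subtracted the values with that sum were 0.77 for Klk10 and 0.10 for Klk13. That sum includes Itga5, the gene of the sorted integrin. None of the defining markers of these 4 lists was at 0 in any group, and their part in the kallikrein differences was not tested.

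Inhibitors of kallikreins formed a list of 11 genes, of which 6 were tested. An unadjusted edgeR p under 0.05 was reached by 5 of the 6 in RORγt-deficient and 4 in wild-type mice. Over all genes these shares were 21.8% and 20.5%. In each genotype 1 of the 6 passed without the block, beside 5.52% and 3.45% of all genes. That gene was Serpina3n, a secreted serine protease inhibitor. It rose with A5 status by 6.35 ± 0.44 in RORγt-deficient (edgeR quasi-likelihood test, adjusted p = 1.82e-05) and 4.42 ± 0.40 in wild-type mice (adjusted p = 0.00017). Its mean was 184 ± 55.7 CPM in A5-positive and 2.31 ± 0.975 CPM in A5-negative cells of RORγt-deficient mice, and it moved in the same direction as the fibroblast markers. With the replicate block 3 of 6 rose and 1 fell in RORγt-deficient mice, and 2 rose and 1 fell in wild-type mice. Of all genes, 17.6% and 14.4% passed with the block in either direction. Spink5, which encodes LEKTI, was the one that fell in each, with blocked changes of -1.0005 ± 0.25 in RORγt-deficient (adjusted p = 0.0216) and -0.93 ± 0.25 in wild-type mice (adjusted p = 0.0357). Its means were 29.2 ± 8.04 CPM in A5-positive and 57.0 ± 12.3 CPM in A5-negative cells of RORγt-deficient mice, and 34.9 ± 18.0 CPM in A5-positive and 60.6 ± 1.78 CPM in A5-negative cells of wild-type mice. Serpinb6a, an intracellular serpin, rose by 0.66 ± 0.11 and 0.58 ± 0.11 in the blocked fits, and Slpi, which inhibits KLK7, rose by 1.25 ± 0.33 in RORγt-deficient mice.

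Membrane-bound serine proteases and their inhibitors formed a list of 14 genes with 12 tested, and 0 passed edgeR's test without the block in either genotype, while 4 in RORγt-deficient and 0 in wild-type mice had an unadjusted p under 0.05, as did 21.8% and 20.5% of all genes. With the block 6 fell and 1 rose in RORγt-deficient mice, and 1 fell in wild-type mice. The blocked fits called 17.6% and 14.4% of all genes in either direction. Tmprss4, Tmprss13 and Tmprss11f, all transmembrane serine proteases, fell by 0.67 ± 0.15, 0.70 ± 0.16 and 1.05 ± 0.25 in A5-positive cells of RORγt-deficient mice, and Hpn, or hepsin, rose by 1.04 ± 0.27. The one that fell in wild-type mice, named after its value was seen, was Prss8 (prostasin), at -0.69 ± 0.13, and it was at -0.66 ± 0.13 in RORγt-deficient mice.

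Among 14 substrates and corneodesmosome genes, with 11 tested, 0 passed edgeR's test without the block in either genotype, while 6 in RORγt-deficient and 2 in wild-type mice had an unadjusted p under 0.05, beside the same 21.8% and 20.5% of all genes. With the block 3 fell and 1 rose in RORγt-deficient mice, and 1 rose in wild-type mice, beside 17.6% and 14.4% of all genes. The desmosomal cadherins Dsg1a, Dsg1b and Dsc1 fell by 1.16 ± 0.22, 0.72 ± 0.18 and 0.75 ± 0.12 in RORγt-deficient mice, and were at -0.64 ± 0.21, -0.02 ± 0.18 and -0.34 ± 0.12 in wild-type mice. Il18, an interleukin-1 family cytokine made as a precursor, rose by 1.06 ± 0.31 in RORγt-deficient and 1.94 ± 0.30 in wild-type mice.

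Of 12 other enzymes and precursors of the cornifying layer, all tested, 0 passed edgeR's test without the block, while 0 in RORγt-deficient and 2 in wild-type mice had an unadjusted p under 0.05, again beside 21.8% and 20.5% of all genes. With the block 1 fell in RORγt-deficient mice, and 2 rose and 1 fell in wild-type mice, beside 17.6% and 14.4% of all genes. Blmh, the peptidase bleomycin hydrolase, rose by 0.69 ± 0.14 and the transglutaminase Tgm3 by 1.28 ± 0.37 in wild-type mice. The gene that fell in both genotypes, named after its values were seen, was Asprv1, a skin aspartic protease, by 0.64 ± 0.15 in RORγt-deficient and 0.72 ± 0.15 in wild-type mice. None of 17 further genes with kallikrein names, outside the 10 members, had enough counts to be tested. Their summed level was at most 0.179 CPM in a library, with Klk4 and Klk15 at 0 throughout.

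The genes most like Klk13 over the 12 libraries, by Pearson r of log2 CPM among 9065 genes outside the family, were Sdf4 (0.97), Fastk (0.96), 2610528A11Rik (0.96), Stom (0.95) and Sars (0.95). By Spearman's rho 2 of these, Sdf4 and Fastk, were again among the first 5. The gene 2610528A11Rik, the mouse GPR15 ligand, averaged 23.3 ± 18.8 CPM in A5-positive and 4.59 ± 2.18 CPM in A5-negative cells of RORγt-deficient mice, and 67.3 ± 42.1 CPM in A5-positive and 16.6 ± 4.78 CPM in A5-negative cells of wild-type mice (SD, n = 3 each). Stom averaged 353 ± 79.0 and 255 ± 31.2 CPM in A5-positive and A5-negative cells of RORγt-deficient mice, and 644 ± 103 and 330.0 ± 26.2 CPM in those of wild-type mice. Like Klk13, both were highest in wild-type A5-positive and lowest in RORγt-deficient A5-negative cells, the pattern by which they were picked.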

How the data were processed

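Keratinocyte RNA of 12 libraries, 3 in each of 4 groups, was sequenced after SMART-Seq v4 amplification and ThruPLEX library preparation, per the labels' protocols. The deposited table holds whole-number read counts per gene, which the authors made with bcl2fastq, Trimmomatic 0.36, STAR and featureCounts on mm10 (GRCm38), per the submitters' processing notes. The sources used here do not give the annotation release, the strand setting or the handling of reads with several matches.

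Of 55341 rows, 26 had gene names turned to dates and were removed, which left 55315. Genes with low counts were removed with edgeR's filterByExpr, leaving 16677. Counts were scaled by TMM and fitted in 1 model of the 4 groups with the quasi-likelihood F test of edgeR 4.0.16 (limma 3.58.1, R 4.3.3), with Benjamini-Hochberg adjustment over all genes tested and a threshold of 0.05. Standard errors are the absolute log2 fold change divided by the square root of F. Exon lengths came from GENCODE M21. The level of the targeted gene is not reported here. Since each library pooled 2 or 3 mice, p-values reflect how such pools differ. Libraries held 29259516 to 74474252 counts, and limits set by a count of 0 cover counting error only.

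Libraries with the same replicate number deviated together: all 18 such pairs had a correlation of deviations from group means above 0.1 (0.153 to 0.722, over 9071 genes). The 36 other pairs had a median of -0.24, with 3 above 0.1 and the highest at 0.315. Deviations from a group mean sum to 0 within each group, so the negative median follows from the positive pairs and is no separate evidence. The numbers come from the library titles, and the labels say that mice were pooled per sequencing run. Fits with the number as a block are given where they change a call.

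The members and lists were chosen with earlier results of these data known. All 10 members are reported. From each list up to 4 genes with the smallest p in the A5 comparisons are named, and for likeness the 5 genes with the highest Pearson r among those whose log2 CPM averaged 3 or more. Alternatives were DESeq2 1.42.0, RLE scaling, testing unfiltered genes or only those with 5 CPM in 3 libraries, the replicate block, leaving out each library, CPM without TMM and Spearman's rho. Leaving out each library in the blocked model was added after the data were seen. On simulated counts for A5 status in RORγt-deficient mice, over 16268 genes, the fit recovered 41.5% of log2 changes of 1 and 72.4% of those of 2.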

Additional observations from a re-analysis of the deposited data

How the results depend on the processing

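Of the members' A5 and interaction changes and their alternatives, 691 kept their direction and side of the threshold, 27 passed only under the alternative, 1 was lost and 61 changed sign, nearly all of them when 1 library was left out. The number of members past the threshold, with 1 in each A5 comparison and 0 in the others in the main model, was 3 for A5 in RORγt-deficient mice, 2 for A5 in wild-type mice and 0 for the interaction with the replicate block. The genotype difference chose the genes, so its counts restate that choice and test nothing: 2 members beside 670 of all genes in A5-positive and 0 beside 1 in A5-negative cells with the replicate block, 1 beside 493 and 1 beside 21 by DESeq2, and 1 beside 67 and 1 beside 7 without a filter. Leaving out 1 library gave 0 to 1 members for A5 in RORγt-deficient mice, 1 for A5 in wild-type mice, 0 to 1 for genotype in A5-positive cells and 0 for genotype in A5-negative cells. With the replicate block as well, these ranges were 1 to 3, 2 to 2, 1 to 2 and 0 to 1. The interaction had 0 throughout. The count of 0 for A5 in RORγt-deficient mice came without the second A5-negative library of that genotype, and the count of 1 for genotype in A5-positive cells came without its first A5-positive library.

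With the replicate block the A5 change of Klk12 in RORγt-deficient mice turned to 0.076. Over all fits without 1 library, with and without the block, the changes that crossed 0 ran for A5 in RORγt-deficient mice from -0.30 to 0.17 for Klk8, from -0.26 to 0.51 for Klk10 and from -0.86 to 0.65 for Klk12. For A5 in wild-type mice they ran from -0.86 to 0.072 for Klk5, from -1.004 to 0.11 for Klk6 and from -0.40 to 0.18 for Klk8. Interaction values that crossed 0 ran from -0.58 to 0.41 for Klk5, from -0.89 to 0.38 for Klk6, from -0.27 to 0.64 for Klk7, from -0.28 to 0.30 for Klk8, from -0.16 to 0.40 for Klk9, from -0.63 to 0.096 for Klk10 and from -0.86 to 0.033 for Klk13. The cause was not tested. The A5 change of Klk13 stayed between 1.48 and 2.22 in RORγt-deficient mice and between 1.99 and 2.55 in wild-type mice without the block, and passed in 12 of 12 blocked fits in each. Of the 5 genes most like Klk13, 2 were shared with Spearman's rho.

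Groups of 3 limit the precision: standard errors of A5 changes were 0.26 to 0.84 on the log2 scale. Klk12 and Klk14 were limited by depth, and Klk8 by reads it may share with an antisense gene.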
